A study of Mus musculus with 6 samples.

Results

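The 10 genes described here are Parp1, Parp2, Parp3, Parp8, Parp9, Parp10, Parp12, Parp14, Dtx3l and Zc3hav1, the members of the PARP family and its antiviral partners that were chosen by gene symbol out of the 57010 genes of the deposited table. All 10 were found, and all 10 passed the filter on low counts, as did 14799 genes in all. The rule itself uses symbols only, but the genes were chosen with earlier results of these data known. The libraries came from primary neonatal mouse cardiomyocytes (NMCMs) of C57BL/6 mice kept under hypoxia (HO). Of the 6 libraries, 3 came from hypoxic cells given vehicle (HO + Vehicle, named V1, V2 and V3) and 3 from hypoxic cells given the plant sterol β-sitosterol (HO + β-SITO, named T4, T5 and T6). Both groups shared the hypoxia and carried no engineered allele, and no normoxic library was used here, so the effect of hypoxia itself was not measured. The dose of β-SITO and the duration of hypoxia for these libraries are not given in the sources used here. The comparison asks how mRNA levels of hypoxic NMCMs differ with β-SITO.

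PARP enzymes take ADP-ribose from NAD+ and attach it to proteins and nucleic acids. Parp1, Parp2 and Parp3 are nuclear enzymes that are switched on by broken DNA, and Parp1 and Parp2 build long poly(ADP-ribose) chains that recruit repair factors. A second branch of the family, which attaches single ADP-ribose units or has lost the catalytic activity, is induced by interferon and acts against viruses. It includes Parp9, Parp10, Parp12, Parp14 and Zc3hav1. Interferon binds receptors that signal through Janus kinases to transcription factors that bind short promoter motifs called the ISRE and the GAS.

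Total counts ranged from 16694734 to 17082129 in V1 to V3 and from 16962152 to 18460522 in T4 to T6. Levels are given as CPM, in which each library's counts are divided by its TMM-scaled size, as mean ± SD over 3 libraries. Fold changes are given as log2 of HO + β-SITO over HO + Vehicle with their standard error (SE), and adjusted p comes from the quasi-likelihood test of edgeR, adjusted by Benjamini-Hochberg over all 14799 tested genes. A gene is called lower or higher at an adjusted p under 0.05. Nothing in the labels says that the libraries of a group came from separate cultures, so the p-values measure the spread between these libraries, which may be technical. The library names of the HO + β-SITO group carry a suffix that those of the HO + Vehicle group lack, and a separate preparation cannot be told apart from the treatment. In bulk RNA, fewer cells of a type and less RNA per cell cannot be told apart.

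Of the 10 genes, 8 were lower in the HO + β-SITO libraries and 2 were higher. Over all tested genes, 33.8% were lower and 33.0% were higher, so being called in either direction was common in this comparison. All 8 of the lower genes changed by more than 2-fold, against 10.1% of all tested genes, while neither of the higher genes did, against 12.8%. For all 10 genes the libraries of one group lay wholly above those of the other, against 70.5% of all tested genes. The median log2 fold change was -2.41 over the 10 genes and -0.01 over all tested genes. Between 0.227% and 0.238% of the counts of an HO + Vehicle library came from these 10 genes, against 0.0435% to 0.0471% in an HO + β-SITO library.

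**Figure D1:**
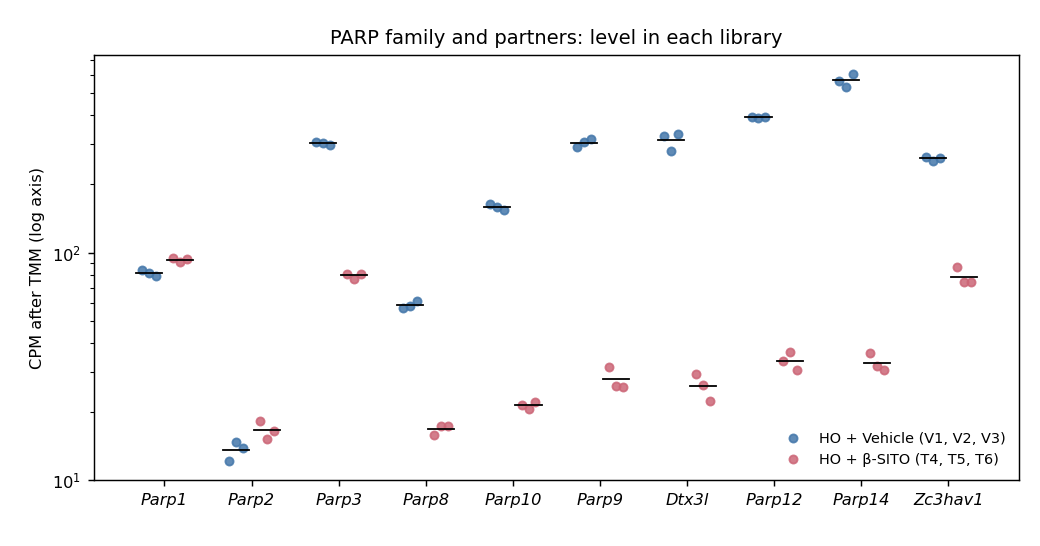
Level of each of the 10 genes in every library, in CPM after TMM scaling on a log axis. Points are single libraries (blue, HO + Vehicle; red, HO + β-SITO) and black lines are group means. Parp1 and Parp2 lie slightly higher in the HO + β-SITO libraries, and the other 8 genes lie far lower, with Parp14 falling from a mean of 570.3 to 32.8 CPM.

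The genes of the DNA-damage branch did not move together. Parp1, the main sensor of DNA breaks and the major producer of poly(ADP-ribose), was at 83.4, 81.1 and 79.1 CPM in V1, V2 and V3 and at 94.7, 91.3 and 93.5 CPM in T4, T5 and T6. All 3 HO + β-SITO libraries were above all 3 HO + Vehicle libraries, by a small margin. Its mean rose from 81.2 ± 2.12 to 93.2 ± 1.74 CPM, a log2 fold change of 0.20 (SE 0.06, adjusted p = 0.00593 by edgeR). Parp2, a close relative of Parp1 that shares part of its role in single-strand break repair, was at 12.1, 14.7 and 13.9 CPM in the HO + Vehicle libraries and at 18.1, 15.2 and 16.4 CPM in the HO + β-SITO libraries. The groups lay next to each other, with V2 at 14.7 CPM just under T5 at 15.2 CPM. The log2 fold change of Parp2 was 0.29 (SE 0.10, adjusted p = 0.0208 by edgeR), and it rested on 192 to 353 counts per library. This call was lost without V1 (log2 fold change 0.24, adjusted p = 0.0671 by edgeR) and without T4 (0.22, adjusted p = 0.081 by edgeR).

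Parp3, which is activated by double-strand breaks and modifies its targets with single ADP-ribose units, fell instead. It was at 306.3, 303.7 and 295.6 CPM in V1, V2 and V3 and at 80.7, 76.8 and 80.8 CPM in T4, T5 and T6. The libraries within each group were close together, and the lowest HO + Vehicle library stood far above the highest HO + β-SITO library. The mean fell from 301.8 ± 5.58 to 79.5 ± 2.27 CPM, which is 26.3% of the HO + Vehicle level (log2 fold change -1.93, SE 0.06, adjusted p = 1.30e-13 by edgeR). Parp3 was thereby the only one of these 3 genes to be lower, and 5.01% of all tested genes had a lower log2 fold change.

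All 4 interferon-linked PARP genes of the set (Parp9, Parp10, Parp12 and Parp14) fell, and both antiviral partners fell with them. Parp14, a large enzyme with macrodomains that bind ADP-ribose, had the lowest log2 fold change of the 10 genes. It was at 569.4, 533.0 and 608.5 CPM in V1, V2 and V3 and at 36.1, 31.8 and 30.6 CPM in T4, T5 and T6. The mean fell from 570.3 ± 37.8 to 32.8 ± 2.90 CPM, a 17.4-fold lower level (log2 fold change -4.12, SE 0.08, adjusted p = 9.26e-16 by edgeR). Among all tested genes, 1.89% had a lower log2 fold change. In the HO + Vehicle libraries Parp14 had the highest CPM of the 10 genes, whereas in every HO + β-SITO library its CPM was below that of Parp3, Parp1 and Zc3hav1. CPM does not correct for gene length. Per kb of annotated exon, Parp14 with vehicle was at 61.3, below Parp12 at 98.4.

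Parp12, a zinc finger protein that restrains the replication of several RNA viruses, was at 394.8, 389.9 and 394.8 CPM in the HO + Vehicle libraries and at 33.4, 36.4 and 30.6 CPM in the HO + β-SITO libraries. The HO + Vehicle libraries differed by less than 5 CPM. Its level came to 8.51% of that with vehicle, with a log2 fold change of -3.56 (SE 0.07, adjusted p = 1.10e-15 by edgeR). Parp10, which modifies proteins with single ADP-ribose units, was at 163.9, 158.3 and 154.4 CPM in V1, V2 and V3 and at 21.3, 20.5 and 22.1 CPM in T4, T5 and T6. The remaining level was 13.4% of that with vehicle, a log2 fold change of -2.90 (SE 0.06, adjusted p = 3.93e-15 by edgeR), the smallest decrease among the 4 interferon-linked PARP genes.

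Parp9 and Dtx3l encode the subunits of 1 complex, in which the macrodomains of Parp9 bind ADP-ribose and Dtx3l is the ubiquitin ligase. Parp9 was at 292.0, 305.3 and 313.6 CPM in V1, V2 and V3 and at 31.3, 26.0 and 25.7 CPM in T4, T5 and T6. Dtx3l was at 324.5, 279.0 and 332.4 CPM in V1, V2 and V3 and at 29.3, 26.2 and 22.2 CPM in T4, T5 and T6. In both genes T4 was the highest of the HO + β-SITO libraries, and it stood far below every HO + Vehicle library. Parp9 fell to 9.12% of its level with vehicle (log2 fold change -3.45, SE 0.08, adjusted p = 5.10e-15 by edgeR). Dtx3l fell to 8.30% (log2 fold change -3.59, SE 0.10, adjusted p = 4.13e-14 by edgeR), with the largest relative spread between HO + Vehicle libraries among the 8 lower genes.

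The ratio of the 2 subunits was also taken per library, from CPM per kb of annotated exon so that the genes can be compared. The Parp9 to Dtx3l ratio was 1.06, 1.29 and 1.11 in V1, V2 and V3 and 1.26, 1.17 and 1.36 in T4, T5 and T6. The ranges overlapped, and the mean ratios of 1.15 ± 0.12 and 1.26 ± 0.10 differed by 0.11 (two-sided exact permutation test over libraries, p = 0.3, where 3 libraries against 3 cannot give less than 0.1). The difference was 0.06 without T6, 0.06 without V1 and 0.18 without V2. A difference in the ratio was thus not detected, although each gene fell by more than 10-fold.

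Zc3hav1 encodes ZAP, also called PARP13, which binds CpG-rich viral RNA and recruits the RNA decay machinery. It was at 262.8, 253.1 and 261.2 CPM in V1, V2 and V3 and at 86.2, 74.5 and 74.5 CPM in T4, T5 and T6. T4 was again the highest HO + β-SITO library. The mean fell from 259.1 ± 5.18 to 78.4 ± 6.74 CPM, which is 30.3% of the HO + Vehicle level (log2 fold change -1.72, SE 0.07, adjusted p = 3.34e-12 by edgeR). It was the smallest decrease of the 8 lower genes.

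Parp8, a little studied PARP that attaches single ADP-ribose units, was at 57.2, 58.05 and 61.5 CPM in V1, V2 and V3 and at 15.8, 17.4 and 17.3 CPM in T4, T5 and T6. Its level with β-SITO was 28.5% of that with vehicle (log2 fold change -1.81, SE 0.07, adjusted p = 6.39e-12 by edgeR). The log2 fold changes of the 8 lower genes thus fell into an upper range of -1.72 to -1.93 (Zc3hav1, Parp8 and Parp3) and a lower range of -2.90 to -4.12 (Parp10, Parp9, Parp12, Dtx3l and Parp14). T4 was the highest HO + β-SITO library for 6 of the 10 genes. It was also below T5 and T6 in every cardiomyocyte marker listed further down, with Myh6 at 2023 CPM against 3268 and 3256 CPM.

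**Figure D2:**
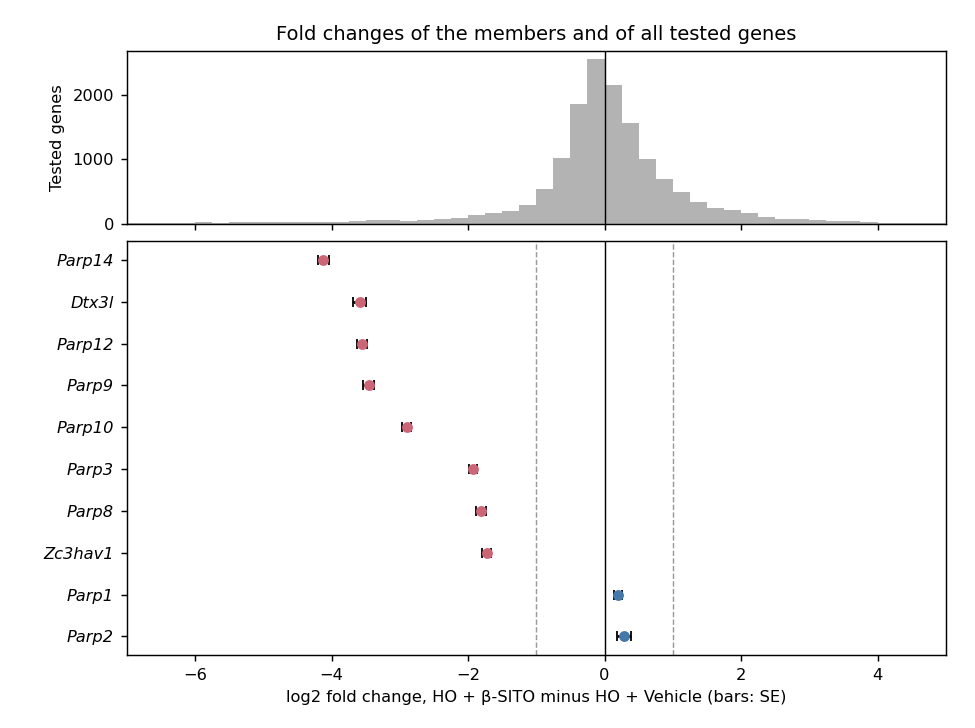
Top, histogram of the log2 fold changes (HO + β-SITO over HO + Vehicle) of the tested genes in bins of 0.25, on an axis from -7 to 5 that leaves out 110 genes. Bottom, the log2 fold change of each of the 10 genes with its SE (bars), with dashed lines at a 2-fold change in each direction. Parp1 and Parp2 sit within the bulk of all genes, and the other 8 genes sit in its lower tail, from -1.72 to -4.12.

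Since the interferon-linked genes fell together, the bases before the gene starts were searched for the core of the ISRE, written GAAANNGAA and searched on both strands, and the core of the GAS, written TTCNNNGAA, which reads the same on both strands. RefSeq windows of 250 bases before the start (build GRCm38.p6) were available for 7 of the 10 genes, and for Parp9, Parp10 and Parp14 none was used. None of the 7 windows held either motif. Of the interferon-linked PARP genes and antiviral partners, only Parp12, Dtx3l and Zc3hav1 were among them. The Parp2, Dtx3l and Parp8 windows overlapped annotated exons of the same gene, and the Parp12 window an exon of 4930599N23Rik. The Dtx3l window also overlapped annotated exon bases of Parp9, and the Parp2 window those of Ccnb1ip1 and Rpph1. Of all 32851 windows of that length, 7.13% held the ISRE core and 7.02% held the GAS core. Among 7 other PARP-domain genes, 6 had a window, 3 of these (Parp4, Parp11 and Tnks2) held the ISRE core and 1 (Parp11) held the GAS core. Their log2 fold changes were -0.26 for Parp4, -3.34 for Parp11 and 0.16 for Tnks2, and a link of motif and change was not tested. The Parp4 window overlapped annotated exon bases of Cenpj. The window of Parp11, a gene outside the 10 that fell like the interferon-linked genes among them, is shown for its motifs. Beside it are the windows of Zc3hav1 and Parp3, which fell, and of Parp1, which rose, none of which holds either motif. Each is printed 5′ to 3′ on the strand of the gene and ends at the base before the start. Capitals mark the motifs.
Parp11, chr6:127446590-127446839, plus strand: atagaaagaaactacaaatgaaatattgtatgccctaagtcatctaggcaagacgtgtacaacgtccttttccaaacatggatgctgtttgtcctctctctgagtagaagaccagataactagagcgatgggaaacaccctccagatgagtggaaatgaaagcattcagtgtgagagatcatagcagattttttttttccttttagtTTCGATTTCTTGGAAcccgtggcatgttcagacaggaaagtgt
Zc3hav1, chr6:38354604-38354853, minus strand: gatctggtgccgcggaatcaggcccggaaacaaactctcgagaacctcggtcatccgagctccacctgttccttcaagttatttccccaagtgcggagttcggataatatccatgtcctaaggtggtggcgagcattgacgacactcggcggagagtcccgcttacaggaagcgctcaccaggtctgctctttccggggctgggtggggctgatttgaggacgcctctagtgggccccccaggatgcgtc
Parp3, chr9:106476950-106477199, minus strand: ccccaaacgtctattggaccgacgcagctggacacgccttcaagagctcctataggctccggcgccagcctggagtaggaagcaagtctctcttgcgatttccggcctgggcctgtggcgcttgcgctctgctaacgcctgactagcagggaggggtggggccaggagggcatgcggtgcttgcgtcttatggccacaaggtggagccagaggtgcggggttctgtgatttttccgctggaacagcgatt
Parp1, chr1:180568641-180568890, plus strand: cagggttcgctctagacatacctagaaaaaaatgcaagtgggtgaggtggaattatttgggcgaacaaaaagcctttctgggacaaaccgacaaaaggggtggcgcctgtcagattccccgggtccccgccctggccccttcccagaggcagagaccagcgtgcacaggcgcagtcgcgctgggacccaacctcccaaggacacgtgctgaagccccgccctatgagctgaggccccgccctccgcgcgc
In the Parp11 window the ISRE core lay on the reverse strand at 43 to 35 bases before the start and the GAS core at 37 to 29 bases before it, so that the motifs shared 3 bases. The Parp11 window had a GC content of 40.4%, the Zc3hav1 window 58.8%, the Parp3 window 61.2% and the Parp1 window 61.6%, against a median of 52.4% over all windows. Parp11 has a second RefSeq start, whose window held neither motif. A match is a match of letters and not a measured binding site, and no match says only that these letters are not in this window.

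Levels of different genes were compared as CPM per kb of annotated exon. In the HO + Vehicle group the order of these levels was Parp12 (98.4), Parp3 (81.6), Parp9 (62.3), Parp14 (61.3), Dtx3l (54.5), Zc3hav1 (39.7), Parp10 (37.2), Parp1 (15.3), Parp8 (6.63) and Parp2 (3.74). Libraries overlapped between Parp9 and Parp14 and between Parp14 and Dtx3l, and every other pair of neighbours in the order was apart in all 3 libraries. With β-SITO the order of levels in CPM per kb was Parp3 (21.5), Parp1 (17.6), Zc3hav1 (12.03), Parp12 (8.38), Parp9 (5.68), Parp10 (4.98), Parp2 (4.57), Dtx3l (4.52), Parp14 (3.52) and Parp8 (1.89). Here the neighbours from Parp10 to Parp14 overlapped, and the others were apart. Parp1 thus had 7 of the 10 genes above it with vehicle and only Parp3 above it with β-SITO, whereas Parp14 had 3 above it with vehicle and 8 with β-SITO.

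The make-up of the whole family was described by summing the level in CPM per kb over 16 PARP-domain genes, 9 of the 10 genes above (without Dtx3l) and 7 further ones. The sum was 476.8, 465.9 and 481.5 in V1, V2 and V3 and 145.8, 141.3 and 142.1 in T4, T5 and T6. On this scale every HO + β-SITO library was far below every HO + Vehicle library. The 5 interferon-linked genes (Parp9, Parp10, Parp12, Parp14 and Zc3hav1) made up 62.6%, 63.0% and 63.3% of the sum in V1, V2 and V3 and 25.3%, 24.1% and 23.1% in T4, T5 and T6. Their mean share was lower by 38.8 percentage points (63.0 ± 0.34% against 24.2 ± 1.10%, two-sided exact permutation test p = 0.1, the smallest that 3 libraries against 3 can give). All 5 genes were already lower one by one, so the share describes the same decreases and is no separate evidence. The share of Parp1 went from 3.23% to 12.3%, that of Tnks from 2.89% to 18.4% and that of Tnks2 from 3.25% to 12.1%. The levels of Parp1 (15.3 and 17.6 CPM per kb) and Tnks2 (15.4 and 17.2) differed little, so their shares rose mainly because the sum fell. Tnks itself went from 13.8 to 26.3 CPM per kb. Parp11, which was not counted as interferon-linked here, went from 4.35% to 1.43% of the sum. The shares of Parp3 (17.2% and 15.02%) and Zc3hav1 (8.37% and 8.40%) were close in the 2 groups, since both fell about as much as the sum.

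**Figure D3:**
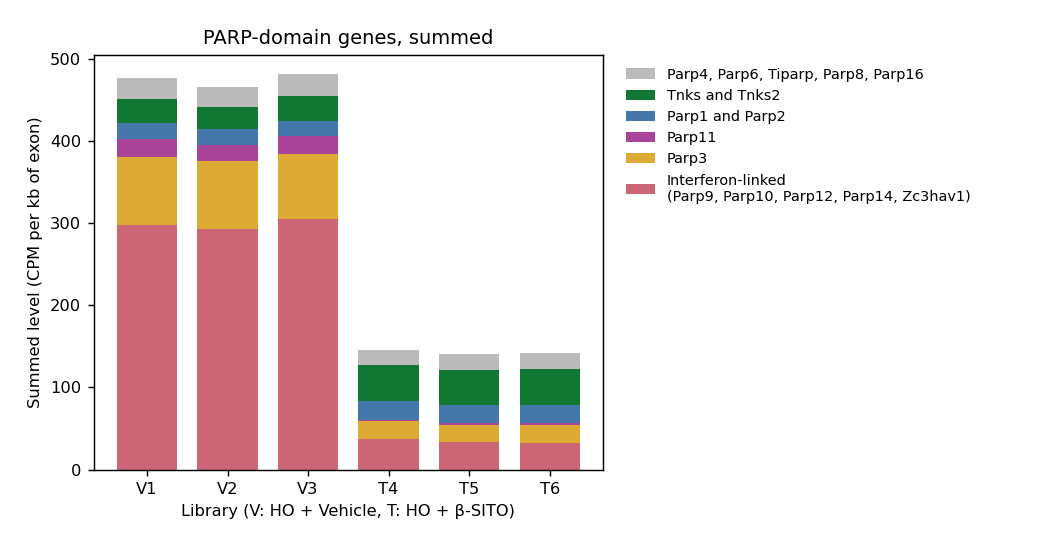
Summed level of 16 PARP-domain genes in each library, in CPM per kb of annotated exon, stacked by gene group. The sum falls from 465.9 to 481.5 in the 3 HO + Vehicle libraries to 141.3 to 145.8 in the 3 HO + β-SITO libraries, and the interferon-linked part (red) shrinks from about 63.0% to 24.2% of it.

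The other 7 PARP-domain genes split 3 lower to 4 higher. Parp11, which attaches single ADP-ribose units, was at 145.3 ± 7.05 CPM with vehicle and at 14.4 ± 0.89 CPM with β-SITO, a log2 fold change of -3.34 (SE 0.07, adjusted p = 3.16e-15 by edgeR), within the range of the interferon-linked genes. Tnks, a tankyrase that builds poly(ADP-ribose) chains on axin and on telomere proteins, rose from 204.8 ± 15.3 to 391.0 ± 9.42 CPM (log2 fold change 0.93, adjusted p = 3.70e-09 by edgeR). Parp16, an enzyme of the endoplasmic reticulum, rose by 1.19 on the log2 scale from a low level of 3.11 CPM. The rest changed by less than 0.5 on the log2 scale. Among them, the decreases of Parp4 and Tiparp were lost with upper quartile scaling or with library size only, which leave 1 lower and 4 higher, and the increase of Tnks2 was lost without V2 (adjusted p = 0.0912 by edgeR).

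Parp14, Dtx3l and Parp9 lie in 1 cluster on chromosome 16 (GRCm39), at 35653244-35691914 on the minus strand, 35746881-35759521 on the minus strand and 35758840-35792975 on the plus strand. Dtx3l and Parp9 overlap by 682 bases at their starts on opposite strands. The strand setting of the counting is not given in the sources used here, so reads from the shared bases cannot be assigned for certain. The genes flanking the cluster did not share the decrease of more than 10-fold. Hspbap1, 4397 bases from Parp14, was at 8.64 ± 0.69 CPM with vehicle and 8.49 ± 0.87 CPM with β-SITO (log2 fold change -0.03, adjusted p = 0.866 by edgeR). Kpna1, an importin 6145 bases from Parp9, was at 74.6 ± 3.84 and 65.5 ± 3.67 CPM (log2 fold change -0.19, adjusted p = 0.0198 by edgeR).

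**Figure D4:**
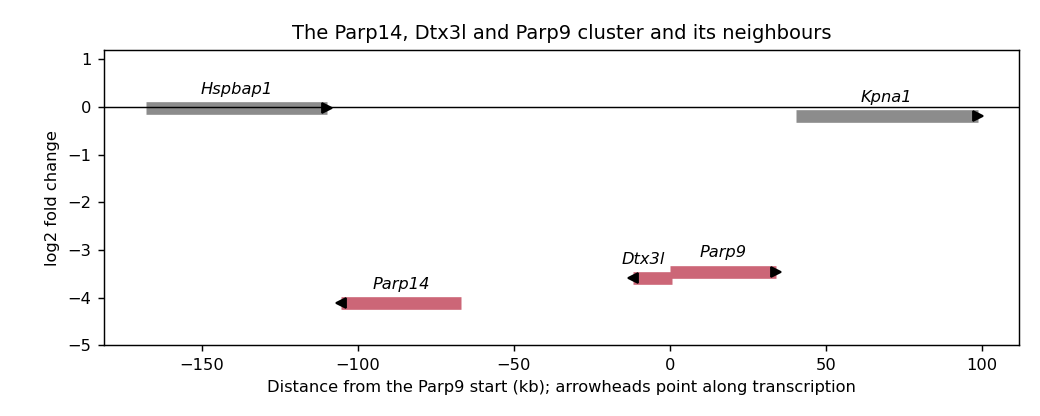
The chromosome 16 cluster, with each gene drawn to scale as a bar at its distance from the Parp9 start (kb, horizontal axis) and its log2 fold change (vertical axis). Red bars are Parp14, Dtx3l and Parp9, grey bars are the flanking genes Hspbap1 and Kpna1, and arrowheads point along transcription. The red bars lie between -3.45 and -4.12, and the grey bars lie at -0.03 and -0.19.

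Zc3hav1 and Parp12 lie on chromosome 6, at 38282221-38331538 and 39063344-39095283, both on the minus strand. Zc3hav1l, a paralog of Zc3hav1 that lies 6027 bases from it, rose from 8.23 ± 0.59 to 32.1 ± 1.95 CPM (log2 fold change 1.96, adjusted p = 4.09e-11 by edgeR) while Zc3hav1 fell. Next to Parp12, Tbxas1, the thromboxane synthase gene 1825 bases away, rose from 3.67 ± 0.71 to 18.3 ± 2.06 CPM (log2 fold change 2.32, adjusted p = 8.99e-10 by edgeR). The long non-coding RNA 4930599N23Rik starts 35 bases from Parp12 on the opposite strand and fell with it (log2 fold change -3.20, adjusted p = 2.24e-06 by edgeR), at 33 counts or fewer in any library. Kdm7a, on the far side, was higher by 0.21 on the log2 scale.

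The other members lie apart from each other. Parp1 is at 1:180396489-180428819 on the plus strand and Parp2 at 14:51045298-51058758 on the plus strand. Parp3 is at 9:106347521-106354148, Parp8 at 13:116991356-117162073 and Parp10 at 15:76115374-76127641, all on the minus strand. Parp3 overlaps Rrp9 by 987 bases on opposite strands, and Rrp9 went from 18.5 ± 0.99 to 10.6 ± 1.62 CPM (log2 fold change -0.80, adjusted p = 1.15e-05 by edgeR). Parp10 overlaps Plec by 1401 bases on the same strand, and Plec fell by 0.57 on the log2 scale, from 317.3 ± 34.5 to 213.9 ± 4.56 CPM. As with Dtx3l and Parp9, reads from the bases shared in these overlaps cannot be assigned for certain. Grina, 3323 bases from Parp10, fell from 364.2 ± 23.9 to 142.0 ± 2.14 CPM (log2 fold change -1.36). Around Parp3, Pcbp4 and Abhd14b were higher and Acy1 was lower. Abhd14a and Rpl29 passed the test in neither direction. Around Parp2, Tep1 was higher, and Ttc5 and Gm26782 passed in neither direction. Lin9, near Parp1, and Ttc26, near Zc3hav1, were lower. In all, 19 tested genes that are not members lay within 50 kb of a member. Of these, 8 were lower (2 by more than 2-fold) and 6 were higher (3 by more than 2-fold), which is near the 33.8% lower and 33.0% higher over all tested genes.

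The genes whose pattern over the 6 libraries was most like that of Parp14 were found by the smallest Euclidean distance between log2 CPM centred on each gene's mean, over 14798 other tested genes. They were Tlr3 at a distance of 0.184, Tor3a at 0.187 and Mlkl at 0.214. Tlr3, a receptor for double-stranded RNA, went from 210.9 to 12.1 CPM. Tor3a, a torsin-type ATPase gene, went from 700.0 to 43.6 CPM. Mlkl, the executor of necroptosis, went from 257.8 to 16.1 CPM. For Parp1 the nearest genes were Mcm2 at 0.0373, Ctu1 at 0.0388 and Dhrs4 at 0.0422. The DNA replication helicase subunit Mcm2 went from 43.7 to 50.2 CPM. These distances mainly reflect the size of the difference between the groups and are a description.

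**Figure D5:**
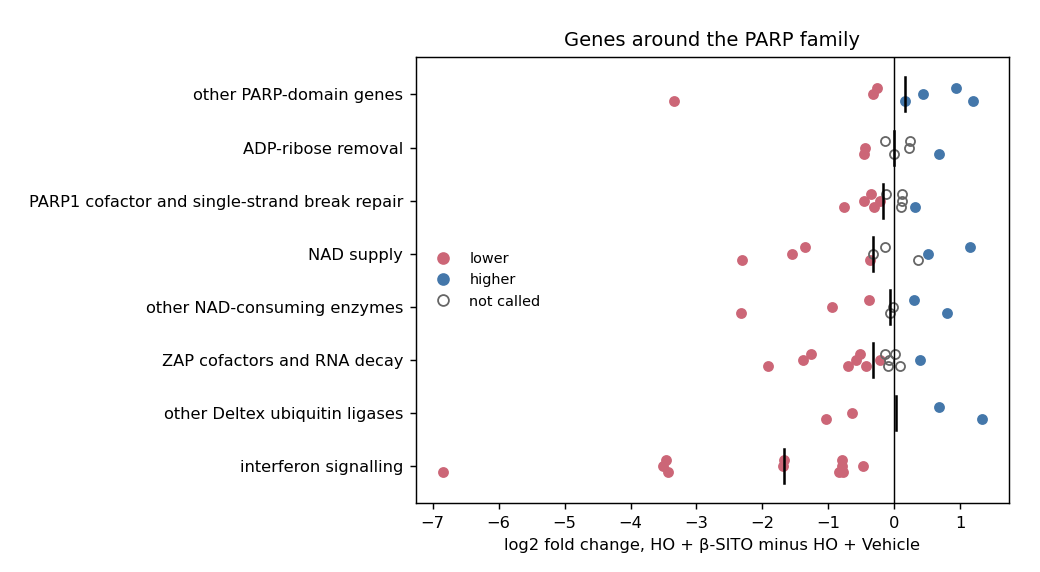
Log2 fold change (horizontal axis, HO + β-SITO over HO + Vehicle) of each tested gene of 8 lists around the PARP family, 1 point per gene, with black bars at list medians. Filled red points are called lower, filled blue points higher and open points neither, at an adjusted p under 0.05. All 11 genes of interferon signalling lie below 0, with Irf7 at -6.85, while the other lists hold genes on both sides.

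Genes around the family were read from the same fit as 8 lists by function. Of 71 listed genes, 69 were tested, 38 were lower (15 by more than 2-fold) and 13 were higher (3 by more than 2-fold). Over all tested genes 33.8% were lower and 33.0% higher, with 10.1% and 12.8% past 2-fold, and several of the lists below lie near these shares. With upper quartile scaling or library size only the split was 30 lower to 18 higher, and the lists of small changes below carry that limit. The largest group of decreases was in the list of interferon signalling, and a link of these to the decreases of the members was not tested. All 11 genes of interferon signalling were lower under each scaling, 6 of them by more than 2-fold, with a median log2 fold change of -1.67. Irf7, a transcription factor of the interferon response, was at 1226 ± 75.7 CPM with vehicle and at 10.7 ± 1.49 CPM with β-SITO (log2 fold change -6.85, adjusted p = 6.45e-17 by edgeR). Irf1, another transcription factor of the response, went from 302.8 ± 8.78 to 26.6 ± 1.26 CPM (log2 fold change -3.51, adjusted p = 6.05e-16 by edgeR), which lies between the log2 fold changes of Parp9 and Parp12. Of the 4 receptor genes, Ifnar2 had a log2 fold change of -1.69, Ifnar1 and Ifngr2 of -0.79 each and Ifngr1 of -0.48.

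Of 14 ZAP cofactors and RNA decay genes, 8 were lower, 1 was higher and 5 passed in neither direction. Trim25, the ubiquitin ligase that ZAP needs for its antiviral activity, fell from 302.4 ± 16.5 to 79.8 ± 4.32 CPM (log2 fold change -1.92, adjusted p = 6.37e-13 by edgeR), close to the log2 fold change of Zc3hav1. Dcp2, the mRNA decapping enzyme, fell from 129.5 ± 3.77 to 49.7 ± 0.84 CPM (log2 fold change -1.38). Ddx17, a helicase and the most abundant gene of the list, went from 418.4 ± 24.6 to 358.8 ± 4.56 CPM, and its decrease of 0.22 on the log2 scale was lost with upper quartile scaling (adjusted p = 0.245 by edgeR). Khnyn, the endonuclease partner of ZAP, was at 41.3 and 39.0 CPM and did not pass the test (adjusted p = 0.289 by edgeR).

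Genes of NAD supply, the substrate of all active PARP enzymes, held some large decreases. Of 9 tested genes of 10, 4 were lower, 2 were higher and 3 passed in neither direction. With upper quartile scaling or library size only, 3 were lower and 3 higher, as they were without V2, V3, T4 or T5. Nampt, the rate-limiting enzyme of the NAD salvage pathway, was at 251.7 ± 17.8 CPM with vehicle and at 51.0 ± 1.76 CPM with β-SITO (log2 fold change -2.30, SE 0.07, adjusted p = 1.09e-13 by edgeR). Nadk, the kinase that turns NAD into NADP, went from 264.1 ± 7.56 to 103.8 ± 3.68 CPM (log2 fold change -1.35, adjusted p = 1.20e-11 by edgeR). Nmnat2 fell as well, from a mean of 1.67 to 0.57 CPM. Nmrk1, which starts NAD synthesis from nicotinamide riboside, rose by 1.15 on the log2 scale, to a level of 6.04 CPM. The summed level of the list was 537.0 to 566.9 CPM with vehicle and 190.7 to 201.6 CPM with β-SITO. That sum mainly reflects Nampt and Nadk, and Nadk uses NAD rather than supplying it. The means of the other genes of the list were at most 9.72 CPM in either group.

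Other enzymes that consume NAD went both ways. Of 7 tested genes of 8, 3 were lower and 2 were higher. With upper quartile scaling or library size only, and without V1 or T5, 2 were lower and 2 higher. Without T6, 3 were lower and 1 was higher. Bst1, an ADP-ribosyl cyclase, went from 19.99 ± 0.95 to 3.99 ± 0.34 CPM (log2 fold change -2.32), and its paralog Cd38 from 66.1 ± 5.97 to 34.4 ± 0.09 CPM (log2 fold change -0.94). The deacetylase Sirt2, the most abundant of the list, was at 110.7 ± 2.02 and 109.5 ± 5.74 CPM (adjusted p = 0.819 by edgeR).

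The genes that act with Parp1 in repair, and those that remove ADP-ribose, changed by less than 1 on the log2 scale. Of 10 genes of the cofactor and single-strand break repair list, 5 were lower and 1 was higher, but with upper quartile scaling or library size only 2 were lower and 3 higher. Apex1, the abasic site endonuclease, fell by 0.76 on the log2 scale from 20.5 ± 2.08 CPM (adjusted p = 4.81e-06 by edgeR) and Aptx by 0.46. Lig3, the ligase of the pathway, went from 39.7 ± 2.26 to 34.2 ± 0.77 CPM (adjusted p = 0.0147 by edgeR), a call that was lost under either of those scalings and without V1, V3 or T5. Of 7 genes for ADP-ribose removal, Adprh and Parg were lower by 0.45 on the log2 scale each, Macrod2 was higher (means of 1.59 and 2.54 CPM), and 4 passed in neither direction. The call on Macrod2 was lost with DESeq2 and without V2, V3, T4 or T5, and under upper quartile scaling or library size only the list had 2 lower and 3 higher.

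Among the other Deltex ubiquitin ligases, the relatives of Dtx3l, 2 were lower and 2 were higher. Dtx4 went from 255.1 ± 8.15 to 124.0 ± 2.83 CPM (log2 fold change -1.04, adjusted p = 2.14e-10 by edgeR). Dtx1 rose by 1.33 on the log2 scale, from a mean of 0.98 to 2.47 CPM.

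Marker genes of cell types also differed between the groups, and their part in the decreases above was not tested. Of 10 cardiomyocyte markers 2 were lower and 4 higher. Their summed levels were 5347 to 6334 CPM with vehicle and 4609 to 7471 CPM with β-SITO. The most abundant were Myh6 (1973 and 2849 CPM) and Actc1 (1460 and 1465 CPM). The labelled cell type was thus present in every library. Markers of other cell types, such as fibroblasts, were present as well, so the decreases of the members cannot be assigned to cardiomyocytes. Fibroblast markers were higher in sum, at 29935 to 31206 CPM against 44584 to 45674 CPM, led by Col3a1 and Col1a1, with 6 of 9 higher and 2 lower. All 8 endothelial markers were higher, with sums of 192.9 to 220.0 CPM against 771.4 to 796.9 CPM and Cdh5 and Pecam1 the most abundant, as were all 6 smooth muscle and pericyte markers, led by Acta2 and Cspg4, with sums of 575.8 to 627.0 CPM against 1107 to 1313 CPM. Of 10 macrophage markers 5 were higher and 3 lower, with sums of 1172 to 1297 CPM against 2267 to 2782 CPM. Lyz2 (647.0 and 1408 CPM) and Mrc1 (11.8 and 325.2 CPM) rose, Cd14 and Fcgr1 fell by more than 2-fold, and Ptprc was at 30.9 and 30.3 CPM. None of 6 T, B and NK cell markers was tested, with Cd3e, Cd3d and Ncr1 at 0 counts in all libraries, and summed levels of at most 0.833 CPM. Of 6 neutrophil markers Ly6g was at 0 in all libraries and only Camp was tested, and it was lower, with summed levels of at most 2.73 CPM. Mitochondrially encoded genes took 1.19% to 1.32% of counts with vehicle and 1.87% to 2.26% with β-SITO.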

How the data were processed

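RNA-seq was measured in 6 libraries of hypoxic NMCMs, grouped by the sample labels (3 HO + Vehicle, 3 HO + β-SITO). The authors deposited 1 table of raw counts per gene without normalization. The submitters' processing notes name FastQC, HISAT2, featureCounts and the build GRCm39, and the strand setting is not given in the sources used here. For the library kit the labels name Illumina TruSeq and the study's methods name ABclonal.

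Counts were filtered with filterByExpr, scaled by TMM and tested with edgeR 4.0.16 (quasi-likelihood, group as the only term) in R 4.3.3, with Benjamini-Hochberg adjustment over 14799 genes. Genes were called at an adjusted p under 0.05, and those past 2-fold were also counted, since the study's threshold for DEGs, applied with DESeq2, has that fold cutoff as well. The biological coefficient of variation was 6.52%. No 2 libraries of a group were identical, but they were not equally far apart. The chi-square of counts per degree of freedom was 1.956 for T5 against T6, the most alike pair. It was 8.567 for T4 against T5 and 9.055 for T4 against T6. Among the HO + Vehicle pairs it was 7.51 (V1 and V2), 4.712 (V1 and V3) and 4.879 (V2 and V3). Levels per length used exon lengths of GENCODE vM21, matched by gene identifier (98.9% of tested genes). Promoter windows came from RefSeq on GRCm38.p6 and were not joined to the GRCm39 coordinates of the table. log2 CPM for likeness used a prior count of 2. The fit was tested on simulated counts.

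The genes named are the 10 members and, from each list, the 2 called genes with the largest change and the most abundant gene, tested genes within 50 kb of a member, the 3 genes most like Parp14 and Parp1, and the most abundant or absent markers. Other list members (Ifnar1, Ifnar2, Ifngr1, Ifngr2, Khnyn, Parg, Nmrk1, Parp4, Tiparp, Tnks2 and the macrophage markers Cd14, Fcgr1 and Ptprc) were named after their values were seen. The members and lists were chosen with earlier results of these data known, and 2 genes of these lists are not reported here and are left out of the counts. Alternatives were DESeq2 1.42.0, limma-voom (limma 3.58.1), glmTreat, other scalings and filters, and leaving out each library in turn.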

Additional observations from a re-analysis of the deposited data

How the results depend on the processing

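Of 130 refitted fold changes of the 10 genes under 13 alternatives each, 128 kept their direction and their side of the threshold, 2 kept the direction only (Parp2, without V1 and without T4) and 0 reversed. The number of members called higher was thus 1 to 2 with a replicate left out, and 2 under the other alternatives. The counts of lower members, of members past 2-fold in either direction and of lower and higher partner genes stayed within 1.5 times their reported values. The share of interferon-linked genes was lower by 38.3 to 39.4 percentage points with a replicate left out, and the difference in the Parp9 to Dtx3l ratio was 0.06 to 0.18, where the exact permutation test cannot pass the threshold. Upper quartile scaling and library size only moved the median log2 fold change of all genes to 0.14 each, and the other alternatives left it within 0.03 of 0. Parp1 ranged from 0.19 to 0.35, Parp2 from 0.22 to 0.44 and Parp14 from -4.19 to -3.97 over the alternatives, and Parp1 and Parp2 were called higher under each scaling. No paired analysis was possible because the libraries are numbered 1 to 3 and 4 to 6 and share no number. With 3 libraries a group the depth gave at least 192 counts per library for every member, and Parp2 was the thinnest.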
